A study of Mus musculus with 4 samples.

Results

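Thymocyte and T cell genes were followed in RNA of sorted mouse thymic epithelial cells (TECs), the stromal cells on which T cell precursors mature. The set holds 40 genes, chosen by name as members of the T cell receptor machinery, the thymocyte differentiation programme and the mature T cell programme. The arrays carried 76 probes for them, 67 of which were well above background on at least 1 array. Of the 40 genes, 34 could be tested among 16773 features in all (13827 of them with a gene symbol), and 6 were too dim to test.

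The samples were 4 single-colour arrays, 2 of control and 2 of Meis1-CKO TECs. All mice were 3 weeks old and carried K14-CreERT2, a tamoxifen-inducible recombinase driven by the keratin 14 promoter, which is active in keratin 14-expressing epithelium. All were given tamoxifen, 1 mg on 3 days in a row. Control mice, which the labels call WT, were K14-CreERT2 Meis1fl/+ and thus not wild type: they had 1 floxed and 1 normal allele of Meis1, a homeobox transcription factor gene, whereas Meis1-CKO mice (K14-CreERT2 Meis1fl/fl) had both alleles floxed. TECs were taken 4 days after the injections as CD45-negative, EpCAM-positive cells, once CD45- and Ter119-bearing cells had been removed with beads. Each array held 1 pool of 6 mice, from 2 independent experiments, and its cDNA was amplified from 10 ng of RNA. The sort gate thus selected against cells with CD45, the surface protein that thymocytes and other leukocytes carry, and the genes described here were measured in what remained.

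T cell precursors enter the thymus, rearrange their receptor genes with the RAG recombinase and terminal transferase, and pass through a stage that bears both CD4 and CD8 before they keep one of them. The receptor signals through the CD3 and zeta chains. Their immunoreceptor tyrosine-based activation motifs (ITAMs) are phosphorylated by the kinase LCK and then bound by the kinase ZAP-70, which phosphorylates the adaptor LAT. TECs present the ligands and secrete the chemokines and cytokines that guide these steps, so the cell types lie in close contact in the tissue.

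Some probes for the receptor complex lie in coding sequence, and 4 of them are shown to let a reader see which stretches of the receptor and adaptor transcripts were measured. Each is a 60-base probe read 5′ to 3′, with capitals marking the codons of an ITAM that was found in an open reading frame of the probe strand. Where no capitals are shown, no such motif was marked.
Cd3d (chr9:44794171-44794402, plus strand): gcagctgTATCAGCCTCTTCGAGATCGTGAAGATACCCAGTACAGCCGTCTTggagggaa
Cd247 (chr1:167786567-167787585, plus strand): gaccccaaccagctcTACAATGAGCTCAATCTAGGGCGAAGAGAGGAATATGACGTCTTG
Cd3g (chr9:44781716-44782300, minus strand): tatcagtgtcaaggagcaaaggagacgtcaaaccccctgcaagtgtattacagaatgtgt
Lat (chr7:133507719-133507778, minus strand): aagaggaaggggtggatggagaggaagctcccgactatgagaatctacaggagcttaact
Coordinates (mm9) were taken from the array files. The first 3 ranges are longer than the probe, and exon and UTR annotation of that build was not used here. An ITAM was found in 32 of the 41174 array probes (0.0777%), 2 of them probes of the 40 genes.

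The arrays are described once. Between 58.6% and 63.6% of spots were well above background, and no spot was saturated. Control 1 and Meis1-CKO 1 shared a slide and a scan (slide 1), and control 2 and Meis1-CKO 2 another (slide 2). Meis1-CKO 2 stood apart from the other arrays, with correlations of 0.857 to 0.885 across features, against 0.936 to 0.943 among the other three. All 18 TEC marker genes, Epcam among them, were above background on every array. The probe that stood for Meis1 gave -0.12, -0.91, -0.44 and -2.08 in array order, and does not check the labels, because the floxed exons are not given in the sources used here. Where 4 values are given in array order, that order is control 1, control 2, then Meis1-CKO 1, Meis1-CKO 2. Levels here are log2 signals relative to the 75th percentile of each array, so that 0 is the signal of a fairly bright probe. A difference is Meis1-CKO minus control on 1 slide, in log2 units. Levels of different genes come from different probes and are not compared as expression; a probe's level served only to choose which genes of a further list are named.

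The thymocyte and T cell genes differed in opposite directions on the slides. On slide 1, 17 of the 34 tested genes read at least 2-fold lower in Meis1-CKO, a size and direction shown by 5.88% of all features, and 2 (Cd28 and Runx3) read at least 2-fold higher (8.56% of all features). On slide 2, 21 of the 34 read at least 2-fold higher in Meis1-CKO (11.3% of all features) and 2 (Arpp21 and Ccr4) at least 2-fold lower (17.1%). The median difference of the genes was -1.05 on slide 1 and 1.33 on slide 2, where the medians of all features were 0.00 and -0.12. Any lower reading on slide 1 was found for 27 of the 34 genes (49.8% of all features), and any higher reading on slide 2 for 29 (43.7%). In a pool, the number of cells that held this RNA and the RNA per cell cannot be told apart. Which cells held it was not tested.

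A group of 12 genes was at least 2-fold lower on slide 1 and at least 2-fold higher on slide 2, as were 1.1% of all features. They were the receptor chain genes Cd3d, Cd3e and Cd3g, the coreceptor gene Cd8a, the signalling genes Lck and Lat, the surface receptor genes Cd2, Cd69 and Icos, the chemokine receptor gene Ccr9, and the transcription factor genes Ets1 and Tcf7. The reverse order, higher on slide 1 and lower on slide 2 by at least 2-fold, was shown by 0 of the 34 genes and 2.12% of all features. As measured, 2 genes, Arpp21 and Cd28, were past 2-fold in the same direction on both slides (3.17% of all features). For Arpp21 this was read from Meis1-CKO signals below background, and its bound is lower, at 1.84-fold. The slide 1 readings of Cd28 in the control and of Cd2 in Meis1-CKO were below background as well. With normexp background correction, which adds an offset of 50 to the signal, 9 genes were at least 2-fold lower on slide 1 (0.602% of all features), 14 at least 2-fold higher on slide 2 (6.21%) and 4 both (0.173%), namely Cd3d, Cd3e, Ets1 and Tcf7.

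**Figure D1:**
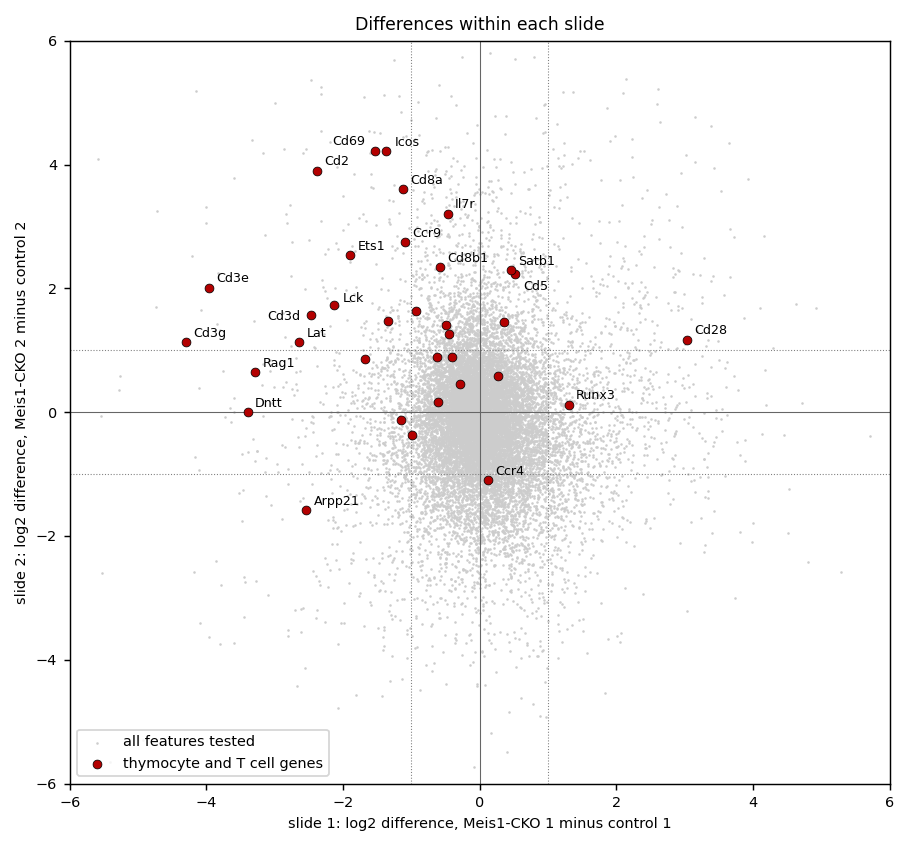
Difference of Meis1-CKO minus control (log2) on slide 1 (x axis) and slide 2 (y axis) for the 34 tested genes (red points, some of them named) over all 16773 features (grey). Most of the red points lie in the quadrant of lower on slide 1 and higher on slide 2, which holds 23 of the 34. Outside the plotted limit of 6 log2 units lie 10 features.

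None of the 34 genes passed the test of Meis1-CKO against control over both slides (limma, Benjamini-Hochberg adjusted over all features), and 0% of all features did. Unadjusted, 2 of the 34 (Arpp21 and Cd28) had a p under 0.05, as did 2.78% of features. Arpp21 entered the test because both controls were above background, and Cd28 because both Meis1-CKO arrays were. Each was thus let in only by the group where it read higher, which favours a gap, and these p-values are not used as support. The median difference over both slides was 0.28. Without Meis1-CKO 1, 3 genes passed as higher in Meis1-CKO 2 than in the controls (1.17% of all features passed in that direction): Cd2 by 3.71 (SE 0.535, limma adjusted p = 0.0333), Cd69 by 3.89 (SE 0.568, limma adjusted p = 0.0334) and Cd8a by 3.40 (SE 0.539, limma adjusted p = 0.0402). That fit assumes that the lone array varies like the controls. Without any other array 0 of the 34 genes passed. With 2 arrays per group, a two-sided exact permutation test cannot go below p = 0.333.

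The 4 arrays could be placed in an order for this set. The median level of the 34 genes was 0.24 in control 1, -0.76 in control 2, -1.09 in Meis1-CKO 1 and 0.88 in Meis1-CKO 2. The summed linear signal, in units of each array's 75th percentile, was 88.7, 46.5, 30.3 and 110 in the same order. The controls thus differed from each other, with control 1 above control 2, and the 2 Meis1-CKO arrays lay on opposite sides of both. Meis1-CKO 2 was the highest of the 4 arrays for 23 of the 34 genes (29.1% of all features), and Meis1-CKO 1 the lowest for 20 (21.5%). Both held for 12 genes, or 11.2% of all features.

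**Figure D2:**
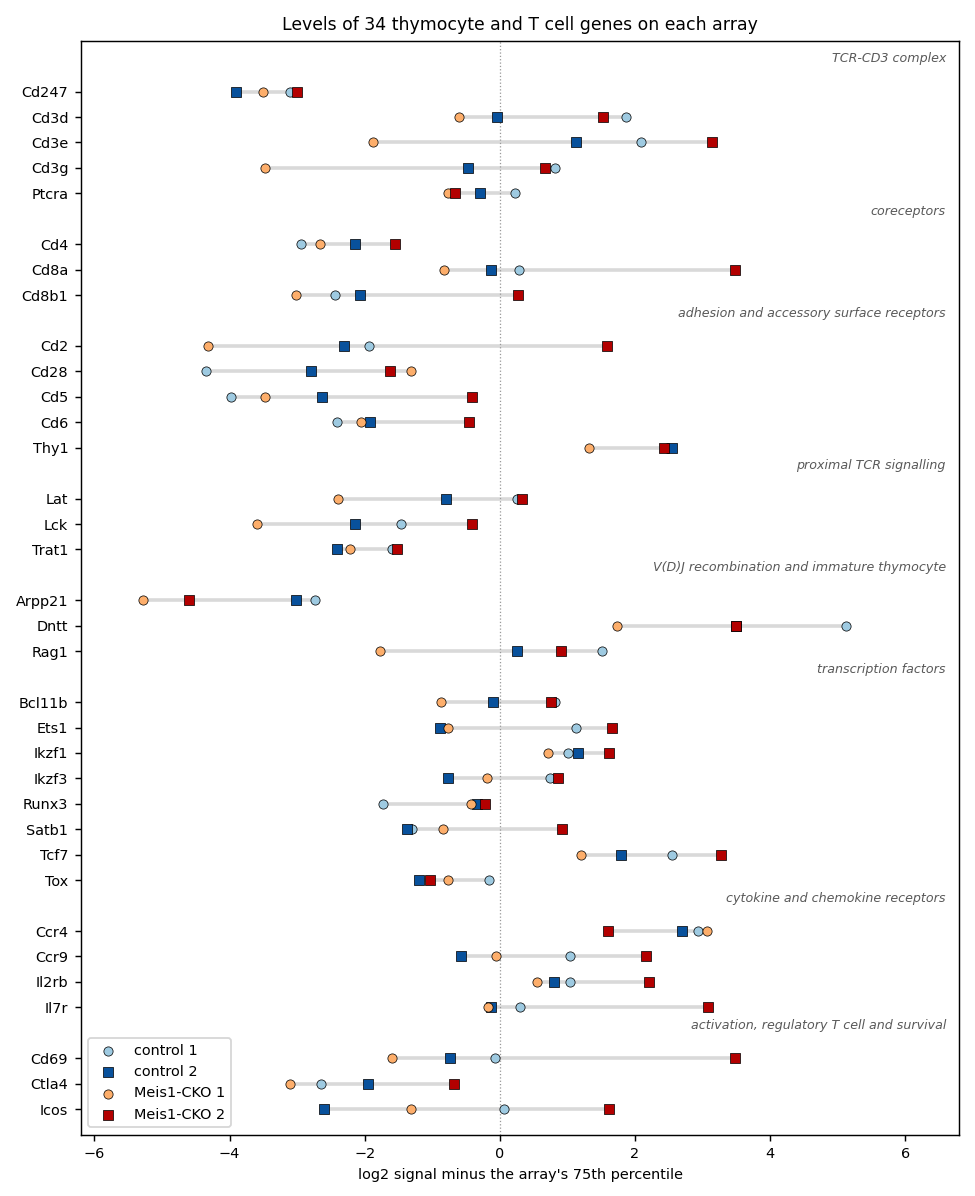
Level (log2 signal relative to each array's 75th percentile) of the tested genes on each of the 4 arrays, with genes grouped by role. For Cd3e, Cd3g, Cd2, Lck and Lat, Meis1-CKO 1 is the lowest point and Meis1-CKO 2 lies above control 2.

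The receptor complex genes held the largest slide 1 differences of the set. Cd3g, which encodes a CD3 chain, read 0.82 and -0.47 in the controls and -3.47 and 0.66 in Meis1-CKO 1 and 2. Cd3e, which encodes another CD3 chain, read 2.08 and 1.13 in the controls and -1.88 and 3.14 in Meis1-CKO 1 and 2. In both genes Meis1-CKO 1 lay below both controls, while Meis1-CKO 2 lay between the controls for Cd3g and above them for Cd3e. The differences were -4.29 on slide 1 and 1.13 on slide 2 for Cd3g, and -3.97 and 2.01 for Cd3e. Cd3d, whose probe is shown above with its ITAM, read 1.87 and -0.05 in the controls and -0.60 and 1.53 in Meis1-CKO 1 and 2, so the groups overlapped.

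Cd247, which encodes the zeta chain, gave a different picture on each of its 4 probes. The probe that stood for it read -3.10 and -3.90 in the controls and -3.51 and -3.01 in Meis1-CKO 1 and 2, and was above background on 1 of 2 control arrays. The probe shown above with its ITAM was above background in Meis1-CKO 2 alone, at -5.66, -4.84, -3.85 and -2.88 in array order. A further probe, above background in control 1 and Meis1-CKO 2, read -1.77, -3.54, -3.47 and -0.34 in that order, and the last one was dim on every array. For each probe, Meis1-CKO 2 read above control 2. Ptcra, which encodes the surrogate alpha chain of the pre-T cell receptor, read 0.23 and -0.29 in the controls and -0.77 and -0.66 in Meis1-CKO 1 and 2. It was the receptor gene with both Meis1-CKO arrays below both controls, by -1.0 on slide 1 and -0.37 on slide 2 (limma difference -0.68, SE 0.451, n = 2 arrays each, adjusted p = 1.00).

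Of the coreceptor genes, Cd8a was the one with at least a 2-fold difference on both slides. It encodes the alpha chain of CD8, and read 0.29 and -0.12 in the controls, -0.83 in Meis1-CKO 1 and 3.48 in Meis1-CKO 2. The controls and Meis1-CKO 1 lay close together and Meis1-CKO 2 stood far above them, with a difference of 3.61 on slide 2 against -1.12 on slide 1. A second Cd8a probe, above background in control 1 and Meis1-CKO 2, differed by -4.01 and 1.73, and another, above background in Meis1-CKO 2 alone, by 0.42 and 3.97. Cd8b1, for the beta chain, differed by -0.58 and 2.34. Cd4, for the other coreceptor, read -2.94 and -2.14 in the controls and -2.67 and -1.55 in Meis1-CKO 1 and 2. Its differences of 0.27 and 0.59 were smaller than the gap between the controls (limma difference 0.43, SE 0.589, n = 2 arrays each, adjusted p = 1.00). Without Meis1-CKO 2 the Cd4 difference was -0.13.

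Among the signalling genes downstream of the receptor, the 3 that could be tested read lower on slide 1 and higher on slide 2 (23.3% of all features). Lat, the adaptor whose probe is shown above, read 0.25 and -0.80 in the controls and -2.39 and 0.33 in Meis1-CKO 1 and 2. Lck, the kinase that phosphorylates the ITAMs, read -1.46 and -2.14 in the controls and -3.59 and -0.41 in Meis1-CKO 1 and 2. Meis1-CKO 1 was the lowest and Meis1-CKO 2 the highest array for both genes. Differences were -2.64 and 1.13 for Lat and -2.13 and 1.73 for Lck. Trat1, a receptor-associated adaptor, read -1.59 and -2.41 in the controls and -2.22 and -1.52 in Meis1-CKO 1 and 2. A second probe assigned to Trat1 was above background in the controls alone (-3.33 and 1.97). Whether it measures Trat1 was not checked, and no difference is drawn from it.

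The 6 genes that could not be tested held 3 of these signalling genes. Zap70, the kinase that binds phosphorylated ITAMs, was above background in Meis1-CKO 2 alone (-4.54, -5.41, -5.73 and -2.82 in array order). The same held for Sh2d1a, which encodes the adaptor SAP (-4.30, -3.80, -6.01 and -2.64), and for Gimap4, a GTPase gene of lymphocytes (-4.46, -5.34, -4.86 and -1.94). Themis, needed for thymocyte selection, was above background in control 1 (-1.53) and Meis1-CKO 2 (-0.77) and dim in control 2 (-3.59) and Meis1-CKO 1 (-5.21). A second Themis probe was above background in Meis1-CKO 2 alone and the last on no array. Foxp3, the factor that defines regulatory T cells, was not well above background on any array (-5.56 to -5.22). Rag2, the partner of RAG1, was likewise dim on every array (-5.93 to -4.65). Over the 40 genes, 34 were above background in control 1, 33 in control 2, 32 in Meis1-CKO 1 and 38 in Meis1-CKO 2.

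Genes of V(D)J recombination and of immature thymocytes read low in Meis1-CKO 1, with medians over the 3 tested genes of -3.29 on slide 1 and -0.01 on slide 2. Dntt, the terminal transferase that adds bases at receptor gene junctions, read 5.13 and 3.50 in the controls and 1.73 and 3.49 in Meis1-CKO 1 and 2. Meis1-CKO 1 lay far below the other three, and Meis1-CKO 2 read as control 2 did. The 3 Dntt probes, all above background on all 4 arrays, differed by -3.40 to -2.83 on slide 1 and by -0.01 to 0.15 on slide 2. Over both slides the limma difference of Dntt was -1.70 (SE 0.836, n = 2 arrays each, adjusted p = 1.00). Rag1, the catalytic subunit of the RAG recombinase, read 1.51 and 0.25 in the controls and -1.77 and 0.90 in Meis1-CKO 1 and 2. Its 3 probes differed by -3.32 to -1.97 on slide 1 and -0.13 to 0.65 on slide 2. The Rag1 probes other than the one that stood for the gene were below background in Meis1-CKO 1. Of these 3 tested genes, all were at least 2-fold lower on slide 1 (5.88% of all features), with Arpp21 below background in Meis1-CKO 1. On slide 2, 0 of the 3 were at least 2-fold higher (11.3% of all features).

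Arpp21, a gene of immature thymocytes and neurons, was lower in both Meis1-CKO pools on the probe that stood for it. That probe read -2.74 and -3.02 in the controls and -5.28 and -4.60 in Meis1-CKO 1 and 2. The groups did not overlap, and neither Meis1-CKO array was well above background, so the fold is a bound of at least 1.84-fold lower. The bound sets the control mean against the lowest signal well above background on each Meis1-CKO array, or the dim signal where that is higher. The limma difference from the dim signals themselves was -2.06 (SE 0.475, n = 2 arrays each, unadjusted p = 0.0059, adjusted p = 1.00). Arpp21 was let into the test by the controls alone, so neither this gap nor its p-value is used as support. A second Arpp21 probe read -3.36, -1.99, -4.31 and -1.92 in array order, above background on slide 2 arrays alone, and differed by -0.95 and 0.06. The last Arpp21 probe was dim on every array. The first 30 bases of the first 2 probes show that they target separate stretches of the gene, on the minus strand.
Arpp21 first probe (chr9:112083795-112083854): tagaaaatgtgtggactgactcccagagaa
Arpp21 second probe (chr9:111967936-111967995): agattacaatatccctgattcggattagtt
GC content over the whole probe was 41.7% for the first and 35.0% for the second.

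Cd28 was the other gene past 2-fold in the same direction on both slides as measured. It encodes the costimulatory receptor of T cells. The probe that stood for it read -4.34 and -2.79 in the controls, with control 1 not above background, and -1.31 and -1.62 in Meis1-CKO 1 and 2. Both Meis1-CKO arrays lay above both controls, by 3.03 on slide 1 and 1.17 on slide 2 (limma difference 2.10, SE 0.637, n = 2 arrays each, unadjusted p = 0.0186, adjusted p = 1.00). Cd28 was let into the test by the Meis1-CKO arrays alone, so neither this gap nor its p-value is used as support. With normexp background correction the Cd28 differences were 0.57 on slide 1 and 0.385 on slide 2. A second Cd28 probe, above background in control 1 and Meis1-CKO 2, read -1.88, -4.07, -3.93 and -0.86 in array order. It was lower on slide 1 (-2.05) and higher on slide 2 (3.20), and so went the opposite way to the first probe on slide 1. Both lie on the plus strand of chromosome 1, and their first 30 bases are shown to tell them apart.
Cd28 first probe (chr1:60820867-60820926): ttttacattcaactttagcacaattacaat
Cd28 second probe (chr1:60829679-60829738): ctacatggtaagatggaccagaaattgcaa
GC content over the whole probe was 25.0% for the first and 41.7% for the second.

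The other accessory receptor genes did not share a pattern. Cd2, an adhesion receptor of T and natural killer cells, read -1.94 and -2.31 in the controls, -4.32 in Meis1-CKO 1, where it was not above background, and 1.59 in Meis1-CKO 2. Thy1, a surface glycoprotein abundant on mouse thymocytes, read 2.48 and 2.55 in the controls and 1.33 and 2.43 in Meis1-CKO 1 and 2. Meis1-CKO 2 was thus close to the controls for Thy1 and far above them for Cd2. The second Thy1 probe gave -1.32 and 0.12 where the first gave -1.15 and -0.12. The limma difference of Thy1 was -0.64 (SE 0.537, n = 2 arrays each, adjusted p = 1.00). Cd5 and Cd6, related scavenger-receptor proteins that dampen receptor signalling, were higher on both slides.

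Cd5 read -3.98 and -2.64 in the controls and -3.47 and -0.41 in Meis1-CKO 1 and 2, above background on 1 of 2 control arrays. Its limma difference was 1.37 (SE 1.09, n = 2 arrays each, adjusted p = 1.00), and -0.16 without Meis1-CKO 2. Cd6 read -2.41 and -1.92 in the controls and -2.06 and -0.45 in Meis1-CKO 1 and 2. Meis1-CKO 1 lay between the controls for both genes, so the groups overlapped and the gap rested on Meis1-CKO 2. The limma difference of Cd6 was 0.91 (SE 0.658, n = 2 arrays each, adjusted p = 1.00).

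All 8 transcription factor genes were above background on all 4 arrays by the probe that stood for the gene. By that probe, 6 of them were lower on slide 1 at any size (49.8% of all features) and all of them higher on slide 2 (43.7%). The slide 2 differences of Runx3 and Tox were small, at 0.12 and 0.16. Ets1, a factor of lymphocyte development, read 1.13 and -0.88 in the controls and -0.76 and 1.66 in Meis1-CKO 1 and 2. Its 4 probes, all above background on all 4 arrays, differed by -1.89 to -0.54 on slide 1 and by 1.34 to 2.54 on slide 2. Tcf7, which encodes TCF1 and is needed to specify the T lineage, read 2.55 and 1.79 in the controls and 1.21 and 3.27 in Meis1-CKO 1 and 2, and its second probe gave -1.0 and 1.15 where the first gave -1.34 and 1.48. The probes of these genes thus went the same way as each other on either slide.

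Runx3 and Satb1 were the factor genes higher on both slides. Runx3, which acts in CD8 lineage cells, read -1.73 and -0.34 in the controls and -0.43 and -0.22 in Meis1-CKO 1 and 2 (limma difference 0.71, SE 0.598, n = 2 arrays each, adjusted p = 1.00). Control 1 lay well below the other three arrays there, and the second Runx3 probe gave -0.55 and 0.50. Satb1, a chromatin organiser of thymocytes, read -1.29 and -1.37 in the controls and -0.84 and 0.92 in Meis1-CKO 1 and 2. Both Meis1-CKO arrays lay above both controls (limma difference 1.37, SE 0.678, n = 2 arrays each, adjusted p = 1.00), while a second Satb1 probe, above background in control 1 and Meis1-CKO 2, differed by -0.93 and 2.34. Bcl11b, which maintains T lineage commitment, differed by -1.68 and 0.85 and Ikzf1, the lymphoid factor Ikaros, by -0.30 and 0.46. Tox, needed for CD4 lineage development, differed by -0.61 and 0.16. Ikzf3, the related factor Aiolos, differed by -0.93 and 1.64, but another of its probes above background on all 4 arrays gave 0.11 and -0.70.

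The cytokine and chemokine receptor genes included Ccr4, the one surface receptor at least 2-fold lower on slide 2. Il7r, the receptor chain for the thymic cytokine IL-7, read 0.29 and -0.13 in the controls and -0.18 and 3.07 in Meis1-CKO 1 and 2. Ccr9, the receptor for the TEC chemokine CCL25, read 1.04 and -0.58 in the controls and -0.05 and 2.17 in Meis1-CKO 1 and 2. Meis1-CKO 2 was the highest array for both, with slide 2 differences of 3.21 and 2.75. Ccr4, a chemokine receptor of maturing thymocytes and T helper cells, ran the other way: it read 2.94 and 2.70 in the controls and 3.06 and 1.60 in Meis1-CKO 1 and 2. Meis1-CKO 2 was the lowest array, and both Ccr4 probes gave this (-1.10 and -1.22 on slide 2, 0.12 and 0.13 on slide 1). Il2rb, a chain of the IL-2 and IL-15 receptors, differed by -0.49 and 1.41.

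The genes of activated and regulatory T cells held the largest slide 2 differences of the set, in Cd69 and Icos. Cd69, an early activation marker that also marks selected thymocytes, read -0.07 and -0.74 in the controls, -1.60 in Meis1-CKO 1 and 3.48 in Meis1-CKO 2. Icos, a costimulatory receptor, read 0.06 and -2.60 in the controls and -1.32 and 1.62 in Meis1-CKO 1 and 2. Meis1-CKO 2 lay above all other arrays, with a difference of 4.22 on slide 2 for either gene. On slide 1 the differences were -1.53 for Cd69 and -1.37 for Icos, whose second probe, dim in control 1, gave 1.34 there and 1.97 on slide 2. Ctla4, an inhibitory receptor, read -2.65 and -1.94 in the controls and -3.10 and -0.68 in Meis1-CKO 1 and 2.

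Across the set, 10 of the 34 genes went the same way on both slides, as did 46.9% of all features. Both Meis1-CKO arrays lay above both controls for 2 genes, Cd28 and Satb1 (11.1% of all features), and below both for 4, Arpp21, Dntt, Ptcra and Thy1 (14.4%). Meis1-CKO 2 lay barely below the nearest control for Dntt (3.49 against 3.50) and Thy1 (2.43 against 2.48). The other probes of both genes were slightly higher on slide 2. Arpp21 was below background on both Meis1-CKO arrays, and Cd28 in control 1.

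Grouped by the stage each gene is known for, the slide 1 and slide 2 medians differed in size. The 9 tested genes of immature and double-positive thymocytes had medians of -1.09 and 0.65, the 13 tested pan-T lineage genes -1.68 and 1.46, and the 9 tested genes of mature, activated and regulatory T cells -0.47 and 1.41. Ets1, Ikzf1 and Tox were put in no stage. The first group also holds genes not confined to immature cells, such as the coreceptor genes, and its members were not alike on slide 2. Cd8a, Ccr9, Cd8b1 and Satb1 differed there by 3.61, 2.75, 2.34 and 2.29, and Rag1 and Cd4 by 0.65 and 0.59. Dntt, Ptcra and Arpp21 (dim in Meis1-CKO) gave -0.01, -0.37 and -1.59. Summed signals were 43.1, 15.9, 6.59 and 32.9 for the immature genes in array order. They were 25.4, 15.8, 7.34 and 37.0 for the pan-T genes and 15.1, 11.7, 13.6 and 33.9 for the mature genes. A sum is carried by its brightest probes, and Dntt alone gave 34.9 of the first value. In Meis1-CKO 2, Dntt and Cd8a gave 11.2 each of the 32.9. Meis1-CKO 1 had the lowest sum for the immature and pan-T genes, and control 2 for the mature genes. That last order rested on Ccr4, which gave 6.48 of the 11.7 in control 2 and 8.35 of the 13.6 in Meis1-CKO 1. These groups share pools and some cells, and the differences between them were not tested.

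**Figure D3:**
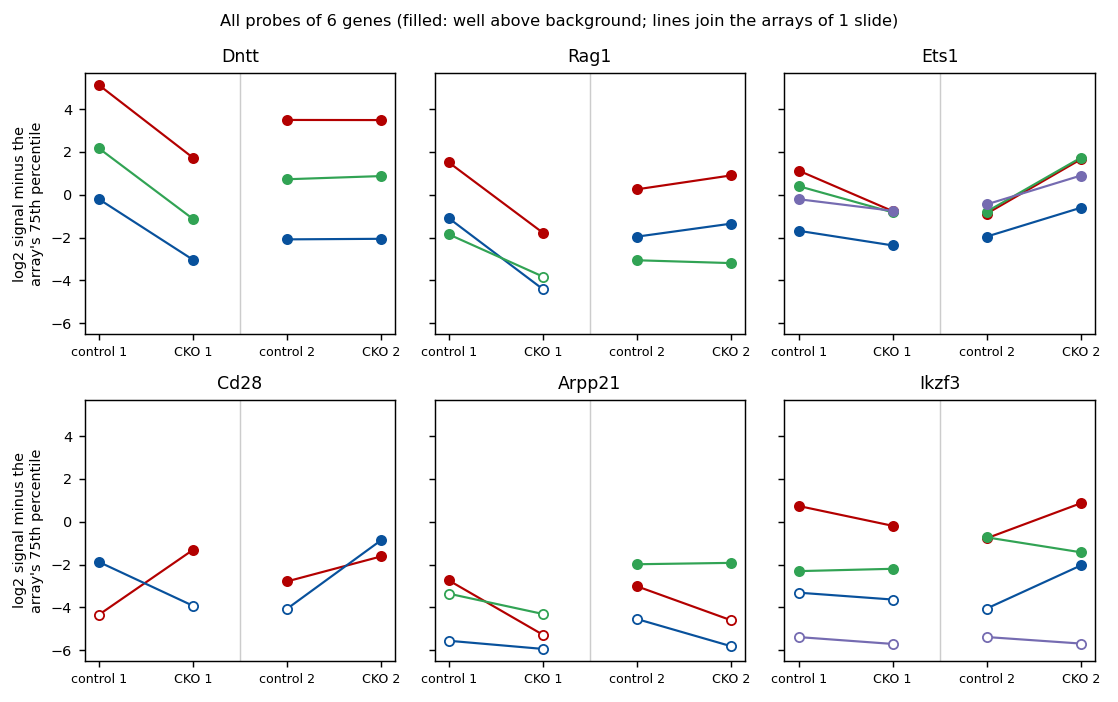
Level (log2 signal relative to each array's 75th percentile) of every probe of Dntt, Rag1, Ets1, Cd28, Arpp21 and Ikzf3, with a colour per probe, lines joining the 2 arrays of a slide, and filled points well above background. The Dntt lines slope down on slide 1 (-3.40 to -2.83) and are flat on slide 2, and the Cd28 lines cross on slide 1, at 3.03 and -2.05.

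Where several probes of a gene were above background on all 4 arrays, their directions were the same for 5 of 7 genes on slide 1 and for 4 of 7 on slide 2. The exceptions were Ikzf3 and Runx3 on slide 1, and Ikzf3, Dntt and Thy1 on slide 2, the last pair with differences near 0. Of the dimmer second probes, that of Cd3e was above background on slide 2 arrays alone and gave 0.59 there. The others of Il7r gave 2.87 and 4.04 on slide 2, and that of Cd6 gave 1.08. Of the Tox probes, one above background in Meis1-CKO 1 alone gave 2.15 on slide 1, and another, above background in Meis1-CKO 2 alone, gave 1.22 on slide 2.

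A further list of 44 T lineage genes outside the set also read higher on slide 2. Of its 31 tested genes, 7 were at least 2-fold lower on slide 1 (5.88% of all features) and 4 at least 2-fold higher there (8.56%). On slide 2, 22 were at least 2-fold higher (11.3%). The medians were -0.26 and 1.91. The 3 with the highest probe levels were Myb, a factor of progenitors (4.16 and 4.62 in the controls, 3.45 and 3.99 in Meis1-CKO 1 and 2), Ikzf2, which encodes Helios (3.69, 2.83, 3.62 and 4.11 in the same order), and Fyb, an adaptor (2.27, 2.49, 2.17 and 4.20). On slide 2, Fyb and Ikzf2 were higher in Meis1-CKO, by 1.71 and 1.28, and Myb lower, by -0.63.

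Markers of other leukocytes also read high in Meis1-CKO 2. Ptprc, the gene of the CD45 antigen used in the bead depletion and the gate, read 1.44 and 1.19 in the controls, -0.75 in Meis1-CKO 1 and 5.56 in Meis1-CKO 2 (-2.19 and 4.36 on the slides). All 20 pan-leukocyte markers could be tested. They had medians of -0.41 and 1.86. On slide 1, 7 of 20 were at least 2-fold lower (5.88% of all features), and on slide 2, 15 of 20 were at least 2-fold higher (11.3%). Their summed signals were 53.8 and 58.8 in the controls and 44.1 and 225 in Meis1-CKO 1 and 2. Those with the highest probe levels were Cd52 (3.43, 3.86, 3.54 and 5.22 in array order), the leukocyte plastin gene Lcp1 (2.62, 2.74, 2.61 and 4.24) and Cytip (2.32, 2.31, 2.07 and 3.49). Each of these 3 was highest in Meis1-CKO 2, and Meis1-CKO 1 lay close to the controls for them, though not for Ptprc.

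Myeloid and dendritic cell markers (18 of 22 tested) had medians of 0.12 and 1.46 and summed signals of 33.8 and 42.1 in the controls and 39.2 and 167 in Meis1-CKO 1 and 2. Thus the high reading of Meis1-CKO 2 was shared by T lineage, leukocyte and myeloid lists. Of the 18 myeloid genes, 13 were at least 2-fold higher on slide 2 (11.3% of all features). On slide 1, 1 of the 18 was at least 2-fold lower, near the share over all features (5.88%), against 7 of the 20 pan-leukocyte markers. At least 2-fold higher on slide 1 were 3 of the 18 (8.56% of all features). The myeloid genes with the highest mean probe levels were Lyz2, for lysozyme (3.87, 4.49, 4.33 and 4.00), the phagocyte oxidase gene Cybb (1.90, 1.54, 2.12 and 3.04) and the dendritic cell factor gene Zbtb46 (1.48, 1.82, 1.89 and 2.53). In Meis1-CKO 2 alone the brightest were Mpeg1 (-1.91, -0.56, -1.89 and 6.16 in array order) and Tyrobp (0.14, 0.26, 0.10 and 4.89). The sum of 167 there was carried mostly by these genes. On slide 2, 3 of the 18 myeloid genes were lower.

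B cell markers (7 of 13 tested) had medians of 0.19 and -0.01 and summed signals of 14.8 and 19.8 in the controls and 14.7 and 14.7 in Meis1-CKO 1 and 2. The members with the highest probe levels were Pou2af1 (2.78, 3.45, 2.71 and 2.35), Cd72 (1.51, 1.81, 1.78 and 2.84) and Blnk (1.35, 1.64, 1.02 and -0.09). Erythroid markers (8 of 12 tested) had medians of 0.02 and -1.23 and summed signals of 14.1, 8.69, 11.3 and 4.18, led by Tfrc (1.40, 1.65, 1.39 and 0.54), Ahsp (0.92, 0.43, 1.24 and -0.44) and Slc4a1 (0.13, 0.29, 0.65 and -0.08). Of 9 natural killer cell markers, 0 could be tested, and 4 were above background in Meis1-CKO 2.

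The TEC markers read low in Meis1-CKO 2. All 18 were tested, with medians of -0.05 on slide 1 and -0.70 on slide 2, where 17 of 18 were lower. Of all 16773 features, 9439 were lower on slide 2. Their summed signals were 674 and 523 in the controls and 569 and 263 in Meis1-CKO 1 and 2. The chemokine gene Ccl25 read 7.60, 7.51, 7.69 and 5.91, the keratin gene Krt18 6.73, 6.40, 6.64 and 5.70, and Krt5 6.55, 5.85, 5.71 and 5.16 in array order. The part of these markers, of the slide or of single pools in the T lineage differences was not tested. With 1 array of each genotype per slide, genotype, pool and array cannot be told apart within a slide.

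**Figure D4:**
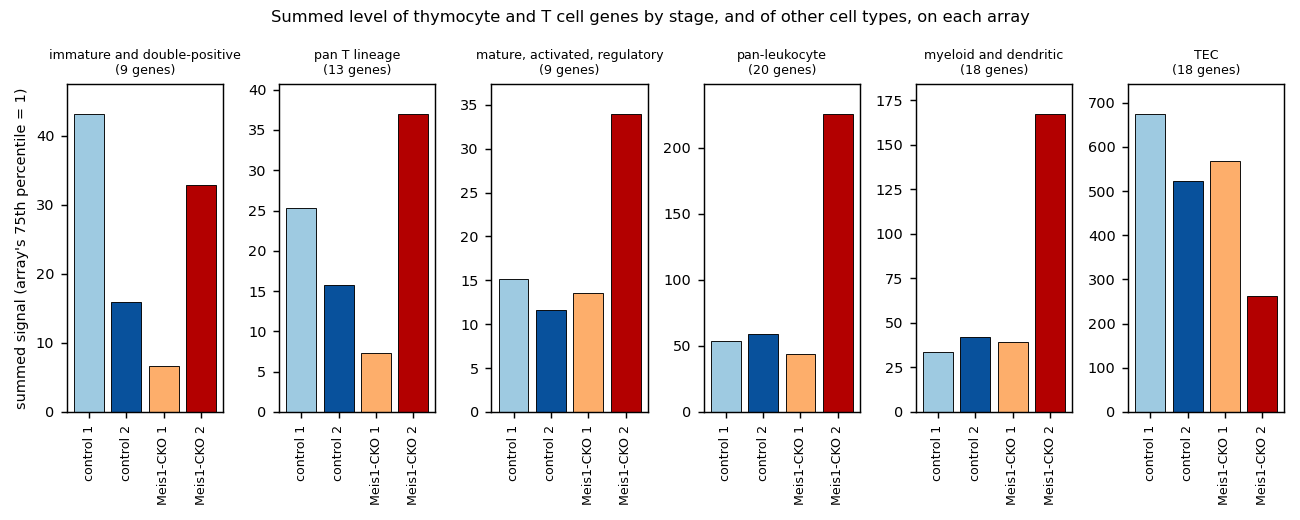
Summed linear signal (each array's 75th percentile = 1) on each of the 4 arrays for the T lineage genes of each stage and for pan-leukocyte, myeloid and dendritic, and TEC markers, 1 bar per array, each panel with its own axis from 0. Meis1-CKO 2 is the highest bar for pan-leukocyte markers (225) and the lowest for TEC markers (263), and Meis1-CKO 1 is the lowest bar for the immature and pan-T genes (6.59 and 7.34).

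The Meis1-CKO arrays differed in opposite directions from the mean control: the median of the 34 genes was -0.75 for Meis1-CKO 1 and 1.04 for Meis1-CKO 2. The controls differed as well, with median levels of 0.24 and -0.76, so the slide differences also hold the gap between the controls. A restriction to genes above background on all 4 arrays left 29 of the 34, of which 15 were at least 2-fold lower on slide 1 (4.27% of 14583 features), 18 at least 2-fold higher on slide 2 (9.83%) and 11 both (0.837%). With normexp background correction the medians were -0.53 on slide 1 and 0.75 on slide 2.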

How the data were processed

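Per the file headers, spot intensity in the deposited scanner files is linear, background-subtracted and spatially detrended by Agilent Feature Extraction 9.5.3.1 and not scaled between arrays. The authors' deposited value table holds log2 values that were compared with the scanner values over 20818 probes; differences between arrays had a slope of 1.00. Its column medians were 0.04, 0.09, -0.06 and -0.12. It was used as an alternative. Log2 processed signal minus the 75th percentile of non-control spots was used here. Of 45018 spots, 1639 control spots and 63 to 78 outlier spots per array were left out, and spots of a probe were averaged. The 75th percentile was 93.2 and 137 in the controls and 109 and 152 in Meis1-CKO 1 and 2.

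Symbols were updated through RefSeq (GRCm38.p6) for 26690 of 41174 probes by accession and 952 by older symbol, 5189 were current, and 8343 had none. A probe was tested if both arrays of either group read it well above background, and the one with the highest mean stood for its gene. Groups were compared with limma 3.58.1 in R 4.3.3 (lmFit, eBayes, no block, Benjamini-Hochberg, 0.05). The fit had 5.52 degrees of freedom after moderation, so the number of arrays limits precision. On simulated data of 16765 features, 0 of 50 genes changed by a log2 difference of 2, 11 of 50 by 4 and 43 of 50 by 6 were called, with 4 false calls. Noise there was normal and independent between features, with spreads drawn from the prior that limma estimated. No simulated array stood apart and no genes shifted together, so these counts need not hold for the real arrays.

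The genes, roles and lists were chosen with earlier results of these data known. Values on every array are given for genes with differences of at least 1 on both slides or at the extremes of their role group, and limma results for those with the same direction on both slides. Of other lists, the 3 genes with the highest mean level and Ptprc are named, and Mpeg1 and Tyrobp for their part in a sum. Deviations of same-numbered arrays correlated at 0.13, but with 2 pairs, and labels that tie the numbers to no shared day or litter, the numbers were not taken to pair the arrays. P-values measure the spread between these pools. No probe was matched to 7 of the listed marker genes.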

Additional observations from a re-analysis of the deposited data

Results flagged for a closer look

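The thymocyte and T cell genes differed in opposite directions on the slides, with a median difference of Meis1-CKO minus control of -1.05 on slide 1 and 1.33 on slide 2 over 34 genes. The difference between the slides was not tested, because each slide held 1 array of each genotype. All features had medians of 0.00 and -0.12, and 23 of the 34 genes were lower on slide 1 and higher on slide 2, as were 23.3% of all features.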

How the results depend on the processing

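The counts of genes passing limma depended on 1 array. Leaving out each array in turn gave 0 to 312 features and 0 to 3 of the 34 genes with an adjusted p under 0.05, the higher values without Meis1-CKO 1. The median difference over both slides ranged from -0.75 (without Meis1-CKO 2) to 1.04 (without Meis1-CKO 1), against 0.28 with all arrays, and was -0.22 without control 2. With the replicate number as a block, 0 features and 0 of the 34 genes passed, and 2 of the 34 had an unadjusted p under 0.05, as with no block. The unadjusted count of features was 660 with the block and 466 without it.

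Counts past 2-fold, taken under each setting after the data were seen, depended on the background correction. With normexp the count of genes at least 2-fold lower on slide 1 was 9 against 17, and of those also at least 2-fold higher on slide 2 it was 4 against 12. Of 42 single-gene differences past 2-fold, 19 were under it with normexp. The alternatives were quantile normalization, normexp, the deposited value table, no filter on dim probes, a filter for all 4 arrays, a mean over probes and the block. Across them, the other 49 of 51 summary values kept their direction and stayed within 1.5 times (counts) or the spread between arrays (medians). Some of these could not move: the block leaves the median difference unchanged, and the deposited values match the scanner values.

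Of 398 single-gene differences within a slide, 392 kept their sign. Many of them could hardly differ. The deposited values match the scanner values (slope 1.00), and the filter settings and the mean over probes often kept the same probe. The count is thus no measure of separate checks. Arpp21 on slide 2 turned to 0.0639 without the filter, where another probe stood for it. Trat1 on slide 2 turned to -3.36 with a mean that takes in the unchecked probe. Cd5 and Cd4 on slide 1 (-0.03 each with normexp) and Dntt on slide 2 (0.004 with normexp, 0.06 with the mean over probes) turned near 0. Over both slides, Cd5 ranged from -0.16 to 2.90 and Cd4 from -0.13 to 0.99 when arrays were left out, both negative without Meis1-CKO 2. The cause was not tested. Signals below background limit Arpp21, Cd28, Cd5, Cd2 and Cd247.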
